A study of Mus musculus with 6 samples.

Results

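Messenger RNA of 10 enzymes of glycolysis was measured in mouse intestinal organoids, which are epithelial structures grown in culture from gut stem cells. The genes were Hk1, Hk2, Gpi1, Pfkl, Pfkp, Aldoa, Tpi1, Pgk1, Pkm and Ldha, chosen by name, and all 10 were found among the 24786 rows of the deposited count table. The group labelled WT_TA100 was wild-type organoids exposed to 100 µM tyramine, an amine that gut bacteria make from tyrosine, for 16 h (3 libraries). Its control, labelled WT_DMSO, was wild-type organoids without tyramine (3 libraries); the labels name the solvent DMSO where the series' design text names control medium, and the sources used here do not say if tyramine was given in DMSO. Organoids of both groups were first dissociated with TripLE for 10 min. Whether replicates came from separate mice or cultures is not stated, so the p-values rest on library-to-library spread alone, and that spread may be technical.

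Glycolysis splits glucose into pyruvate and yields ATP and NADH without oxygen, and lactate dehydrogenase then turns pyruvate into lactate while restoring NAD+. Several steps can be carried out by more than one isoenzyme, each from its own gene: some are made in most tissues, such as HK1, ALDOA and PKM, and others mainly in liver, kidney or gut, such as PKLR. Many genes of the pathway are known targets of the hypoxia-inducible factor HIF-1 and of MYC, and dividing cells of the gut crypt are known to rely on glycolysis more than the absorptive cells of the villus do.

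The libraries held 29176428 to 32489563 counts with tyramine and 28316372 to 35035955 counts in DMSO controls. Of all genes, 12139 had enough counts to be tested, all 10 enzymes among them, and 25.8% of those tested were called at an adjusted p under 0.05 (12.5% higher and 13.3% lower with tyramine; edgeR's quasi-likelihood test with Benjamini-Hochberg adjustment over all tested genes). The groups did not overlap in 44.5% of tested genes, in 20.9% with tyramine above DMSO and in 23.6% below. As a sum, epithelial markers were abundant in both groups. They reached 17240 to 19300 CPM (counts scaled to library size) with tyramine and 17930 to 19460 CPM in DMSO. Of the 8 markers, 2 rose with tyramine and 3 fell. Markers of other cell types were scarce: 10 mesenchymal markers summed to 10.5 to 11.3 CPM with tyramine and 11.5 to 12.1 CPM in DMSO, 10 haematopoietic markers to 9.00 to 13.1 CPM and 6.18 to 10.3 CPM, with Hba-a1 at 0 with tyramine and Cd3e at 0 in DMSO, and 6 endothelial markers to 0.209 to 2.61 CPM and 0.439 to 1.25 CPM, with Emcn at 0 with tyramine. Markers of absorptive enterocytes and of cycling cells were lower with tyramine. All 14 enterocyte markers fell, their sum being 4112 to 4538 CPM with tyramine and 20300 to 21430 CPM in DMSO, and 14 of 15 proliferation markers fell, summing to 212 to 254 CPM with tyramine and 2726 to 3256 CPM in DMSO; none of either list was at 0 in a whole group. The part of these shifts in the results on the enzymes was not tested, and in bulk RNA fewer cells of a type and less RNA per cell cannot be told apart.

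Of the 10 enzymes, 4 rose with tyramine (Hk1, Hk2, Aldoa and Pkm), 3 fell (Pfkp, Tpi1 and Ldha) and 3 were not past the threshold (Gpi1, Pfkl and Pgk1). Counted by overlap of the libraries, 5 lay wholly above and 4 wholly below the DMSO range, and Gpi1 overlapped. The shares over all tested genes were 12.5% rising and 13.3% falling, and 20.9% wholly above and 23.6% wholly below. The median log2 fold change of the 10 was 0.08, against 0.00409 over all tested genes. The fitted folds were 1.23 to 2.52 among the risers and 1.79 to 2.36 among the fallers. Over all tested genes the median size of the log2 fold change, without its sign, was 0.548. Of the called enzymes, Hk1, Hk2, Pfkp, Tpi1 and Ldha changed by more than this, and Aldoa and Pkm by less.

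The promoters of the 4 enzymes with the largest fitted changes are shown because glycolytic genes are known HIF-1 targets. The core sequences of HIF-1 include ACGTG, the only form looked for here. Each is the 250 bases before the RefSeq start (GRCm38.p6), in the gene's own direction, at the listed start nearest to the main annotated transcript. Capitals mark ACGTG on either strand, so that CACGTG is a pair of overlapping matches. Hk1 lies at chr10:62379909-62380158 and Hk2 at chr6:82774455-82774704, both on the minus strand. Pfkp lies at chr13:6648772-6649021, minus strand, and Ldha at chr7:46845554-46845803, plus strand.
Hk1: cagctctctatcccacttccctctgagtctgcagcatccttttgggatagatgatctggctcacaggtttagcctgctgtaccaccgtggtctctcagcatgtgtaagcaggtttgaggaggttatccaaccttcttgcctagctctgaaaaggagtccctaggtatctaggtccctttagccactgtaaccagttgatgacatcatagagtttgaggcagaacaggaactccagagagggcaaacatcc
Hk2: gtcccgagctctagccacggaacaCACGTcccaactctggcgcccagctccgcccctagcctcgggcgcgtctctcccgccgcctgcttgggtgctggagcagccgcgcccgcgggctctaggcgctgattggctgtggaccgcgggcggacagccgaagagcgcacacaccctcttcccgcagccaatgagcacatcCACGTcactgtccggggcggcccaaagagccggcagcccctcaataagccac
Pfkp: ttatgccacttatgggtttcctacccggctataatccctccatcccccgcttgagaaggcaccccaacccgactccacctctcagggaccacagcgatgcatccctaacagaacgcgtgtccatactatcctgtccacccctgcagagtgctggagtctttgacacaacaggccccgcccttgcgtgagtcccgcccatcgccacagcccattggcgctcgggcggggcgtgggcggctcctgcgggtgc
Ldha: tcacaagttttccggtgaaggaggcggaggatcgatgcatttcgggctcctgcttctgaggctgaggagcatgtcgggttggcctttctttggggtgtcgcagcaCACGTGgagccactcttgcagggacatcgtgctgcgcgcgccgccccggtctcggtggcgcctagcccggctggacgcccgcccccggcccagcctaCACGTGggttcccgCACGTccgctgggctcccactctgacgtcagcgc
The windows of Hk2, which rose, and Ldha, which fell, held the motif at 2 and 3 separate places. Ldha has a second listed window, at chr7:46846832-46847081, whose start lies 49 bases from that of an annotated transcript, against 35 bases for the one shown, and it held no match. Those of Hk1, which rose, and Pfkp, which fell, did not hold ACGTG, and other forms of the core were not looked for. Hk1 has another listed window without a match, whose start lies 17941 bases from that of a main annotated transcript. All 10 enzymes had windows in RefSeq's set, 15 in all because some have several starts, and 6 windows of 5 enzymes (Hk2, Aldoa, Pgk1, Pkm and Ldha) held ACGTG, against 16.6% of 32851 mouse windows of the same length. Of the 6, the 2 of Aldoa overlap and hold the same place, 76 bases apart in start. Another listed Aldoa window held no match. The match of Pkm was in a window whose start lies 859 bases from that of the main transcript. The nearer Pkm window, at 208 bases, held none. A match is a description of the letters and not of binding.

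Both hexokinases of the set rose. Hexokinase adds the first phosphate to glucose and so keeps it in the cell. Hk1, the form found in most tissues (GRCm38 chromosome 10, 62268855 to 62379908, minus strand), had 151, 162 and 147 CPM in the tyramine libraries, against 64.9, 67.7 and 50.2 CPM in the DMSO libraries. All tyramine values lay above all DMSO values, and Hk1 was 2.52-fold higher (log2 fold change 1.33, SE 0.143; edgeR adjusted p = 0.000126). Hk2, the inducible form of muscle, fat and many tumours (chromosome 6, 82725025 to 82774454, minus strand), had 35.2, 43.9 and 31.0 CPM with tyramine and 19.2, 14.0 and 16.6 CPM in DMSO. Its groups did not overlap either, and it was 2.21-fold higher (log2 fold change 1.14, SE 0.241; edgeR adjusted p = 0.00655).

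Gpi1, whose enzyme turns glucose 6-phosphate into fructose 6-phosphate (chromosome 7, 34201330 to 34230336, minus strand), had 197, 224 and 267 CPM with tyramine and 269, 269 and 218 CPM in DMSO. The groups overlapped, and the fitted difference was a log2 fold change of -0.14 (SE 0.136; edgeR adjusted p = 0.517).

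Phosphofructokinase, the committing and most regulated step of the pathway, is made from 3 genes, of which the set holds the platelet form Pfkp and the liver form Pfkl. Pfkp (chromosome 13, 6579768 to 6648777, minus strand) had 264, 245 and 199 CPM with tyramine and 513, 496 and 531 CPM in DMSO, 2.17-fold lower without overlap (log2 fold change -1.12, SE 0.115; edgeR adjusted p = 9.43e-05). Its annotated gene shares 748 bases with Pitrm1 on the other strand, and how the counting used strand is not given. Pfkl (chromosome 10, 77986947 to 78010083, minus strand) had 36.8, 50.9 and 24.7 CPM with tyramine, against 63.9, 60.1 and 62.9 CPM in DMSO. All tyramine libraries were below all DMSO libraries, but they differed among themselves by 2.06-fold, against 1.07-fold in DMSO, and the adjusted p was 0.0524 (log2 fold change -0.73, SE 0.244). Without tyramine replicate 2, the highest of its group, Pfkl fell (log2 fold change -1.02, edgeR adjusted p = 0.0114). It also fell by DESeq2 (adjusted p = 0.0206) and limma-voom (adjusted p = 0.0207). Without any 1 of the other libraries it was not called (edgeR adjusted p of 0.0639 to 0.151). Nor was it called in edgeR with replicate number added to the model (adjusted p = 0.0526) or with DESeq2-type scaling (adjusted p = 0.0501).

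Aldoa and Tpi1, whose enzymes act one after the other, moved in opposite directions. Aldoa encodes aldolase A, which splits fructose 1,6-bisphosphate (chromosome 7, 126795234 to 126800751, minus strand). It had 817, 836 and 946 CPM with tyramine and 691, 658 and 609 CPM in DMSO, 1.33-fold higher without overlap (log2 fold change 0.41, SE 0.0929; edgeR adjusted p = 0.00970). Tpi1, which interconverts the triose phosphates that aldolase makes (chromosome 6, 124810586 to 124814296, minus strand), had 270, 269 and 264 CPM with tyramine, against 503, 507 and 423 CPM in DMSO. The tyramine libraries lay within 1.03-fold of each other and all below the DMSO ones. Tpi1 was 1.79-fold lower (log2 fold change -0.84, SE 0.0995; edgeR adjusted p = 0.000245).

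Pgk1, phosphoglycerate kinase, which makes the first ATP of the pathway (chromosome X, 106187100 to 106203699, plus strand), had 150, 172 and 181 CPM with tyramine and 144, 145 and 117 CPM in DMSO. The groups did not overlap, yet the difference was not past the threshold (log2 fold change 0.31, SE 0.129; edgeR adjusted p = 0.113). Pkm, the pyruvate kinase of most tissues and of growing cells (chromosome 9, 59656368 to 59679375, plus strand), had 1312, 1259 and 1319 CPM with tyramine and 1094, 1056 and 1002 CPM in DMSO. It was 1.23-fold higher without overlap (log2 fold change 0.30, SE 0.0771; edgeR adjusted p = 0.0166), but the call was lost when libraries were scaled by their totals alone (adjusted p = 0.0691), without DMSO replicate 2 (adjusted p = 0.0762) and without DMSO replicate 3 (adjusted p = 0.0528). Counts are per gene, so the splice forms of Pkm cannot be told apart.

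Ldha, the lactate dehydrogenase subunit that favours lactate formation (chromosome 7, 46841475 to 46855627, plus strand), fell the furthest of the 10. It had 238, 263 and 181 CPM in tyramine libraries, against 534, 528 and 544 CPM in DMSO libraries. The lowest DMSO library stood well above the highest tyramine library, and Ldha was 2.36-fold lower (log2 fold change -1.24, SE 0.133; edgeR adjusted p = 0.000123).

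**Figure D1:**
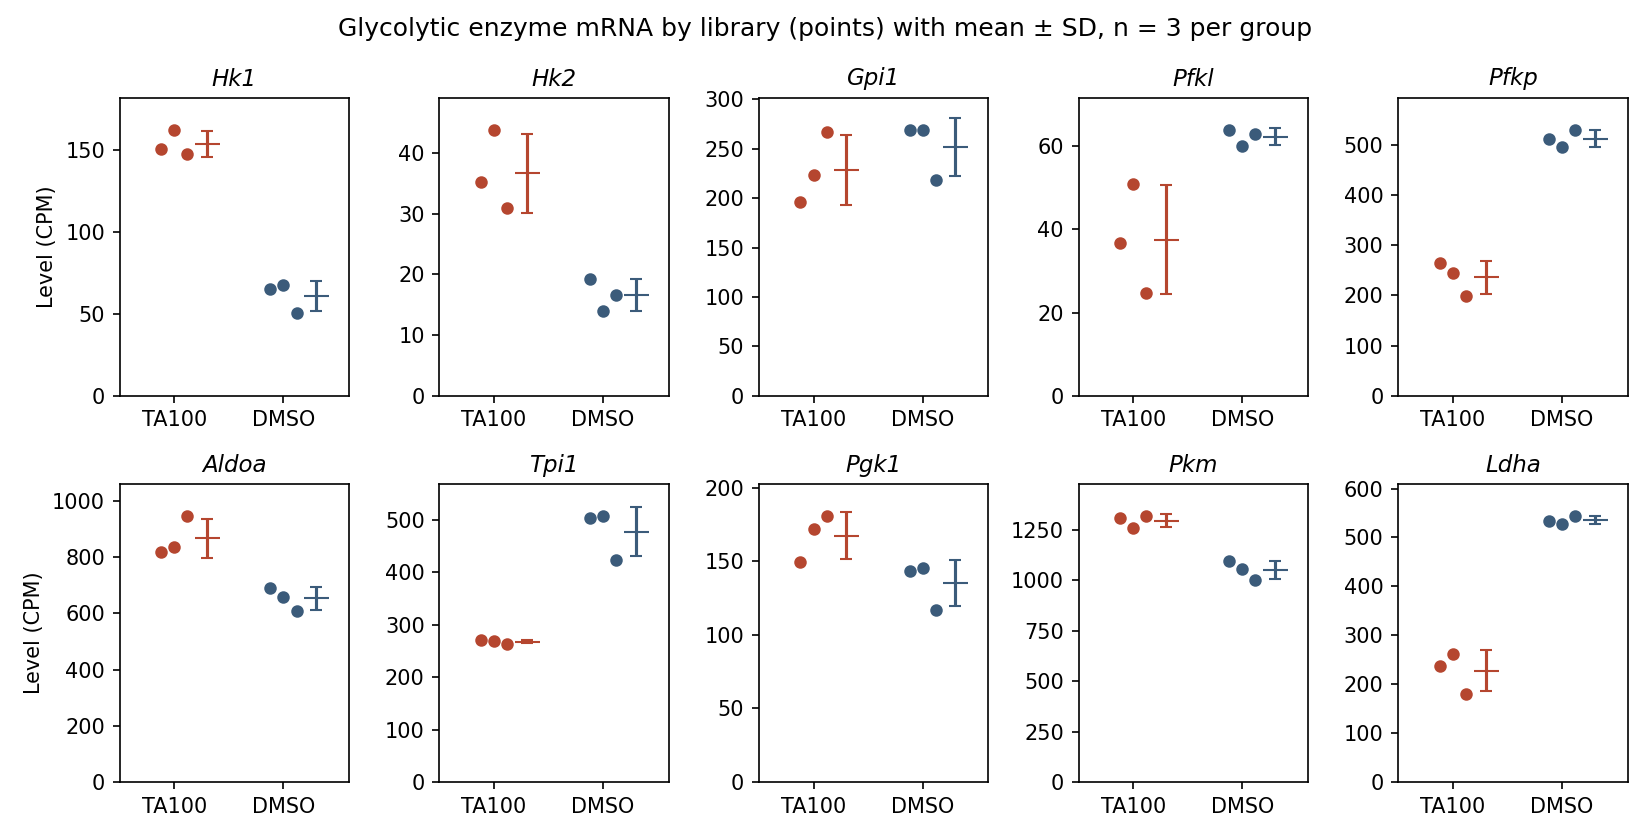
Level of each of the 10 enzymes in CPM (y axis, from 0) in the 3 TA100 (tyramine) and 3 DMSO libraries, points being libraries and the bar beside them the mean ± SD. Gpi1 is the enzyme whose groups overlap; Ldha sits at 181 to 263 CPM with tyramine and 528 to 544 CPM in DMSO.

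Variation within groups was not alike for the 10 enzymes. In tyramine libraries the coefficient of variation ran from 1.30% for Tpi1 and 2.503% for Pkm to 34.99% for Pfkl, and in DMSO libraries from 1.47% for Ldha to 15.6% for Hk2. Ldha and Pfkp, steady in DMSO at 1.47% and 3.36%, had 18.5% and 14.1% with tyramine, whereas Tpi1 had 1.30% with tyramine and 9.94% in DMSO. Tyramine replicate 3 was the lowest of its group for 6 of the 10 (Hk1, Hk2, Pfkl, Pfkp, Tpi1 and Ldha) and the highest for 4 (Gpi1, Aldoa, Pgk1 and Pkm). DMSO replicate 3 was likewise the lowest of its group for 6 of the 10.

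Summed over the 10 enzymes, the level was 3471, 3525 and 3559 CPM with tyramine and 3896, 3802 and 3573 CPM in DMSO, so that every tyramine library was below every DMSO library, by 6.36% on average. The sum was 3518 ± 44.4 CPM with tyramine and 3757 ± 166 CPM in DMSO (SD, n = 3 each). The gap was wider with library totals alone, where the 10 took 0.341% ± 0.00400 of all counts with tyramine and 0.387% ± 0.0243 in DMSO. Pkm and Aldoa together gave 61.5% ± 2.08 of it with tyramine and 45.3% ± 0.427 in DMSO.

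Levels of different genes were compared as CPM per kilobase of the longest coding transcript. In DMSO the order was Pkm (432 ± 19.0 CPM per kilobase) and Aldoa (422 ± 26.7), which overlapped, then Tpi1 (297 ± 29.6) and Ldha (295 ± 4.34), which also overlapped, Pfkp (124 ± 4.16), Gpi1 (87.5 ± 10.2) and Pgk1 (74.1 ± 8.66), which overlapped, Pfkl (16.7 ± 0.537), Hk1 (14.2 ± 2.19) and Hk2 (3.01 ± 0.470). With tyramine, Aldoa (559 ± 44.8) and Pkm (533 ± 13.4) again overlapped at the top. Tpi1 (167 ± 2.17) and Ldha (125 ± 23.1) followed and no longer overlapped each other. Pfkp (57.0 ± 8.05) then stood below Pgk1 (91.8 ± 8.83) and Gpi1 (79.4 ± 12.3), and Hk1 (35.9 ± 1.83) stood above Pfkl (10.1 ± 3.52), whose range overlapped that of Hk2 (6.66 ± 1.19). All are SD over 3 libraries.

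The other genes of the glycolytic steps did not rise. Of 17 such genes, 13 were tested: 0 rose, 7 fell and 6 missed the threshold (median log2 fold change -1.08); the 12.5% and 13.3% above are the shares of all tested genes called in each direction. These genes include the isoenzymes that stand beside the 10 at the same steps, and Hkdc1, Pfkm and Pklr, which fell, are of this kind. The genes of that list that fell, among them also Pgam1, Bpgm and Ldhd, moved in the same direction as the enterocyte and proliferation markers given above. The part of those markers in this result was not tested.

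At the hexokinase step, Hkdc1, a hexokinase-like gene that lies next to Hk1 on chromosome 10 with 3228 bases and 0 other coding genes between them, moved against it. It had 70.0, 88.8 and 56.4 CPM with tyramine, against 227, 224 and 228 CPM in DMSO, 3.16-fold lower without overlap (log2 fold change -1.66, SE 0.161; edgeR adjusted p = 6.49e-05). Hk1 took 58.9% ± 3.86 of the step's CPM with tyramine and 19.96% ± 2.62 in DMSO, Hk2 took 13.9% ± 0.842 and 5.45% ± 0.807, and Hkdc1 took 27.2% ± 3.04 and 74.4% ± 2.54 (SD, n = 3 each). Per kilobase of transcript, the share of Hk1 was 57.3% ± 4.03 with tyramine and 17.4% ± 2.33 in DMSO. The step as a whole summed to 256, 295 and 235 CPM with tyramine and 312, 307 and 295 CPM in DMSO. Hk3 had 0 counts in all 6 libraries, and Adpgk, which phosphorylates glucose with ADP in place of ATP, averaged 17.3 ± 4.72 CPM with tyramine and 16.8 ± 3.68 CPM in DMSO (edgeR adjusted p = 0.945).

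At the phosphofructokinase step all 3 genes were lower in every tyramine library. Pfkm, the muscle form, had 0.847, 2.39 and 0.487 CPM with tyramine and 15.8, 16.6 and 10.5 CPM in DMSO (log2 fold change -3.51, SE 0.641; edgeR adjusted p = 0.00303). With each library left out, the log2 fold change of Pfkm ranged from -4.41 to -3.13 and the call was kept. The value of -4.41 came without tyramine replicate 2, the highest of its group (edgeR adjusted p = 0.000855). The largest edgeR adjusted p was 0.0224, without DMSO replicate 1. The share of Pfkp in the step was 86.1% ± 3.55 with tyramine and 87.0% ± 0.738 in DMSO, a difference within the spread of the tyramine libraries. The step summed to 302, 298 and 225 CPM with tyramine, against 593, 573 and 604 CPM in DMSO.

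At the aldolase step, Aldoc, the brain form, averaged 3.59 ± 2.88 CPM with tyramine and 10.2 ± 1.07 CPM in DMSO. It was not past the threshold (edgeR adjusted p = 0.0946), although it fell by DESeq2 (adjusted p = 0.0495) and limma-voom (adjusted p = 0.0364). It also fell without tyramine replicate 2, the highest of its group (edgeR adjusted p = 0.00992), and under no other alternative. With each library left out, its log2 fold change ranged from -2.39 to -1.15.

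At the pyruvate kinase step Pklr, the form of liver, kidney, gut and red cells, had 104, 130 and 69.0 CPM with tyramine, against 306, 282 and 264 CPM in DMSO (log2 fold change -1.49, SE 0.198; edgeR adjusted p = 0.000497). Pkm took 92.8% ± 2.18 of the step's CPM with tyramine and 78.7% ± 0.527 in DMSO. The sum of the step was 1417, 1389 and 1388 CPM with tyramine and 1400, 1338 and 1266 CPM in DMSO, so the groups overlapped. Ldhb, the heart-type subunit, averaged 0.409 ± 0.166 CPM with tyramine and 0.541 ± 0.292 CPM in DMSO, so that Ldha took 99.8% to 99.9% of the step's CPM in each library.

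**Figure D2:**
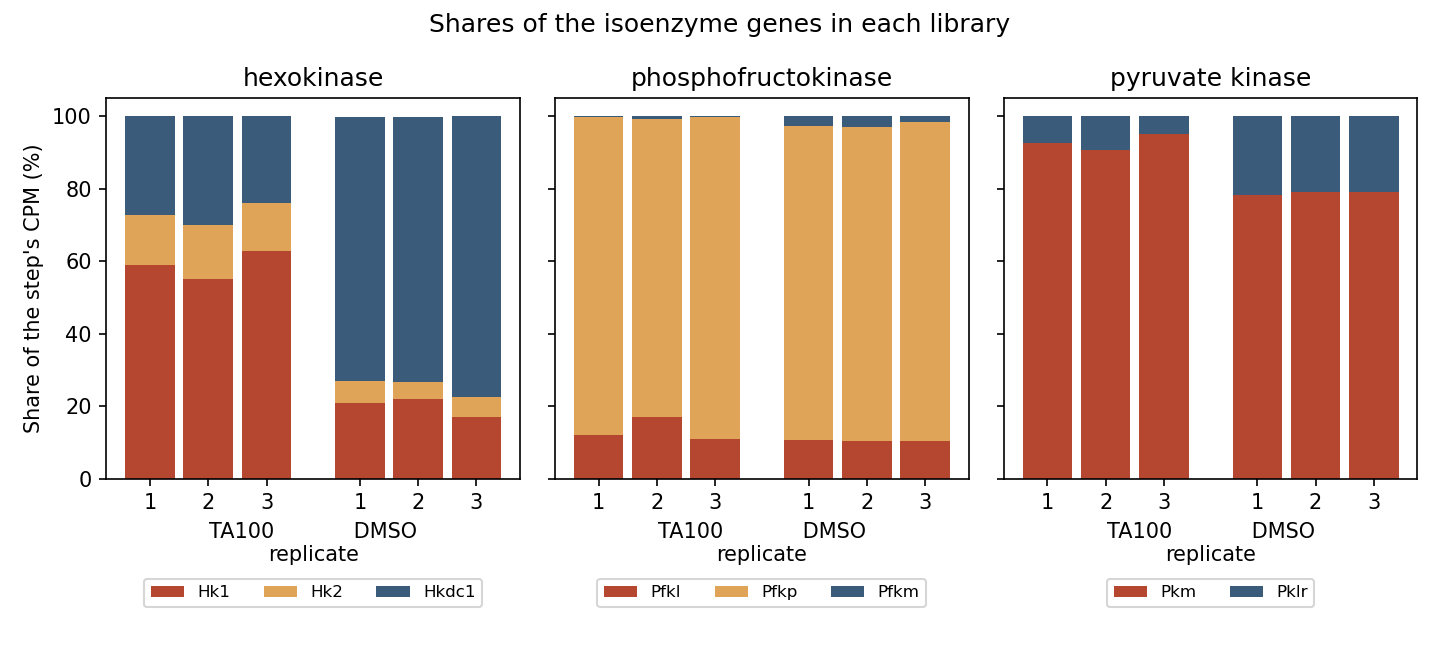
Share of each isoenzyme gene in the CPM of its step (y axis, percent) in each TA100 (tyramine) and DMSO library, numbered by replicate; genes of very small share are not drawn, so bars can stop just short of the full height. Hk1 and Pkm hold larger shares in every tyramine library than in any DMSO library, while Pfkp holds 82.1% to 88.8% in all 6 libraries.

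The remaining steps have no gene among the 10. Gapdh, glyceraldehyde 3-phosphate dehydrogenase, had 117, 132 and 139 CPM with tyramine and 144, 133 and 120 CPM in DMSO, overlapping (log2 fold change -0.04, SE 0.124; edgeR adjusted p = 0.869). Pgam1, phosphoglycerate mutase, had 106, 106 and 112 CPM with tyramine and 150, 136 and 133 CPM in DMSO and fell (log2 fold change -0.37, SE 0.113; edgeR adjusted p = 0.0373), a call that was lost without any 1 library other than tyramine replicate 3 (adjusted p of 0.0716 to 0.144). Eno1, enolase, averaged 402 ± 16.2 CPM with tyramine and 458.2 ± 34.9 CPM in DMSO (edgeR adjusted p = 0.174); its near-identical copy Eno1b had 98.7% to 99.5% of its counts in each library, so the same reads may stand in both and Eno1 is uncertain. Gapdh and other glycolytic genes have many processed pseudogenes, and the counting rule for reads with several matches is not given. Bpgm, which makes 2,3-bisphosphoglycerate, fell 2.12-fold (edgeR adjusted p = 0.00429), and Ldhd, the mitochondrial D-lactate dehydrogenase, fell 4.33-fold (log2 fold change -2.11; edgeR adjusted p = 0.00440). With each library left out, the log2 fold change of Ldhd ranged from -2.72 to -1.775 and the call was kept. The value of -2.72 came without tyramine replicate 1, the highest of its group (edgeR adjusted p = 0.00100). Eno3 reached at most 1.50 CPM in any library (edgeR adjusted p = 0.941), and Eno2 and Pgam2 had at most 13 and 20 counts in any library and were not tested.

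**Figure D3:**
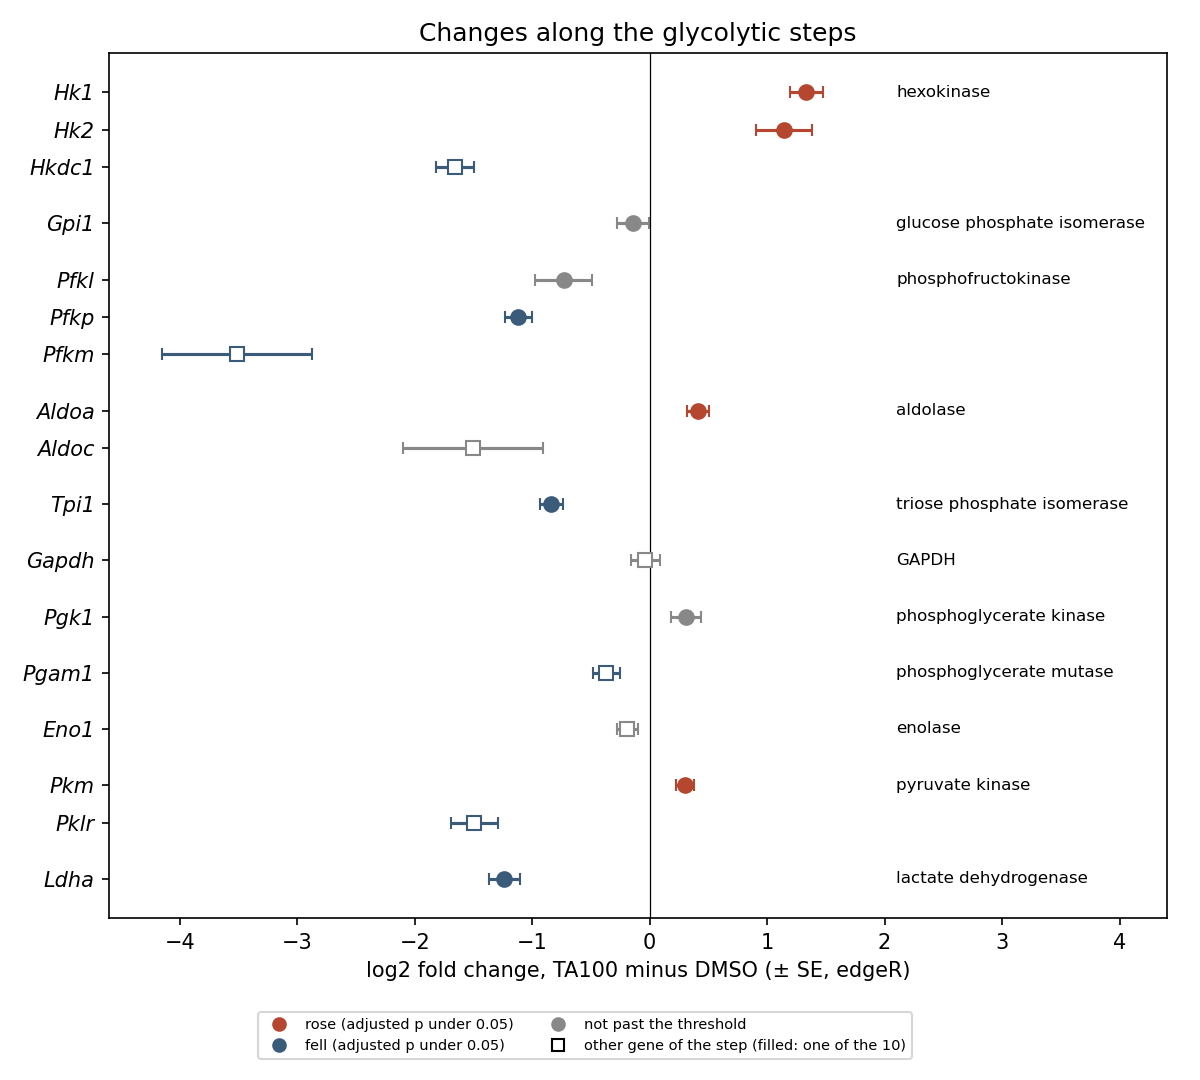
log2 fold change (x axis, tyramine minus DMSO, bars ± SE from edgeR) of the 10 enzymes (filled circles) and other genes of the same steps (open squares), ordered down the pathway. Among genes that share a step, Hk1 and Hk2 lie right of 0 and Hkdc1 left, and Pkm right and Pklr left, while all 3 phosphofructokinase genes lie left.

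The genes that bring sugar in, send lactate out and set phosphofructokinase activity were looked at next. Of 12 tested, 1 rose, 6 fell and 5 missed the threshold (median log2 fold change -1.10). Among all tested genes, 12.5% rose and 13.3% fell. Slc2a1, the glucose carrier GLUT1 of growing cells, averaged 82.6 ± 9.44 CPM with tyramine and 30.6 ± 9.93 CPM in DMSO, 2.70-fold higher (edgeR adjusted p = 0.00183), a change like that of Hk1 and Hk2 in direction. The enterocyte carriers Slc2a2 and Slc5a1, which are also in the enterocyte marker list, were 23.99-fold and 13.3-fold lower (edgeR adjusted p = 1.17e-07 and 1.96e-07). Pfkfb3, whose enzyme makes the phosphofructokinase activator fructose 2,6-bisphosphate, averaged 12.7 ± 2.33 CPM with tyramine and 29.9 ± 0.904 CPM in DMSO, 2.35-fold lower (edgeR adjusted p = 0.00516). Without any 1 DMSO library, 3 of these genes fell in place of 6.

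In gluconeogenesis and fructose handling, 0 of 9 tested genes rose and 6 fell (median log2 fold change -1.07, with or without G6pc at its bound). The shares of all tested genes were 12.5% higher and 13.3% lower. Tkfc, a triose kinase of fructose breakdown, was 6.54-fold lower (126.9 ± 44.0 CPM with tyramine, 830.3 ± 80.9 CPM in DMSO; edgeR adjusted p = 2.23e-05). Khk, ketohexokinase, which starts fructose breakdown, was 3.67-fold lower, and Slc37a4, the carrier of glucose 6-phosphate into the endoplasmic reticulum, 4.63-fold lower (edgeR adjusted p = 0.00236 and 0.00291). Fbp2, a fructose bisphosphatase that reverses the phosphofructokinase step, averaged 144 ± 13.5 CPM with tyramine and 286 ± 16.3 CPM in DMSO, 1.99-fold lower (edgeR adjusted p = 0.000147). G6pc, glucose 6-phosphatase, had 0 counts in each tyramine library, against 61, 150 and 80 counts in DMSO. With 3 counts set as the floor of each library it was at least 29.3-fold lower, a bound that covers counting error only.

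The next list held 14 genes of the mitochondrial pyruvate carrier and of pyruvate dehydrogenase and its regulators. Of these, 0 passed the test as higher, 4 fell and 10 did not pass (median log2 fold change -0.42). For comparison, 12.5% of all tested genes rose and 13.3% fell. Pdha1, the catalytic subunit of pyruvate dehydrogenase, was 1.59-fold lower (283 ± 29.8 CPM with tyramine, 449 ± 16.7 CPM in DMSO; edgeR adjusted p = 0.00115), and Dlat, another subunit, 2.57-fold lower (edgeR adjusted p = 0.00494). The inhibitory kinases of the complex that passed the test also fell: Pdk4 was 11.9-fold lower (1.793 ± 1.004 CPM with tyramine, 21.3 ± 1.35 CPM in DMSO; edgeR adjusted p = 0.000477) and Pdk1, a known HIF-1 target, 4.53-fold lower (edgeR adjusted p = 0.0416). The call of Pdk1 was lost without any 1 DMSO library, without tyramine replicate 3 (adjusted p of 0.0503 to 0.117 over these), without a filter on low counts (0.0931) and at a minimum count of 50 (0.0584), and its log2 fold change of -2.18 was -2.93 by limma-voom.

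HIF and hypoxia genes other than glycolytic enzymes were looked at as a list too. Of 24 tested, 6 rose, 3 fell and 15 did not pass (median log2 fold change -0.06). Over all tested genes 12.5% rose and 13.3% fell. The list was not tested as a set. Hif1a, the oxygen-regulated subunit, averaged 352 ± 13.8 CPM with tyramine and 249 ± 12.7 CPM in DMSO, 1.41-fold higher (edgeR adjusted p = 0.00341). Adm, adrenomedullin, was 28.9-fold higher, Ero1l, an oxidase of protein folding, 3.54-fold higher and Ndrg1 1.75-fold higher (edgeR adjusted p = 4.4e-06, 3.9e-05 and 0.000201). Car9, a carbonic anhydrase and well known HIF-1 target, averaged 10.6 ± 1.57 CPM with tyramine and 79.5 ± 8.95 CPM in DMSO, 7.52-fold lower (edgeR adjusted p = 7.28e-06). HIF proteins are controlled mainly by their breakdown, which RNA counts do not measure.

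Among 11 tested enzymes that lead away from glycolysis, 3 rose, 3 fell and 5 did not pass (median log2 fold change -0.27). In the whole table, 12.5% of tested genes rose and 13.3% fell. G6pdx, the entry to the pentose phosphate pathway, averaged 380.5 ± 23.5 CPM with tyramine and 152.0 ± 7.96 CPM in DMSO, 2.504-fold higher (edgeR adjusted p = 1.16e-05). The cytosolic and mitochondrial enzymes of the glycerol phosphate shuttle, which carries the electrons of glycolytic NADH, differed in direction: Gpd1 was 2.89-fold lower (210 ± 56.1 CPM with tyramine, 607 ± 53.6 CPM in DMSO) and Gpd2 1.76-fold higher (637.5 ± 59.0 CPM with tyramine, 363 ± 18.4 CPM in DMSO), with edgeR adjusted p of 0.000191 and 0.000259. Sord, sorbitol dehydrogenase, was 3.33-fold lower (edgeR adjusted p = 5.64e-05).

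**Figure D4:**
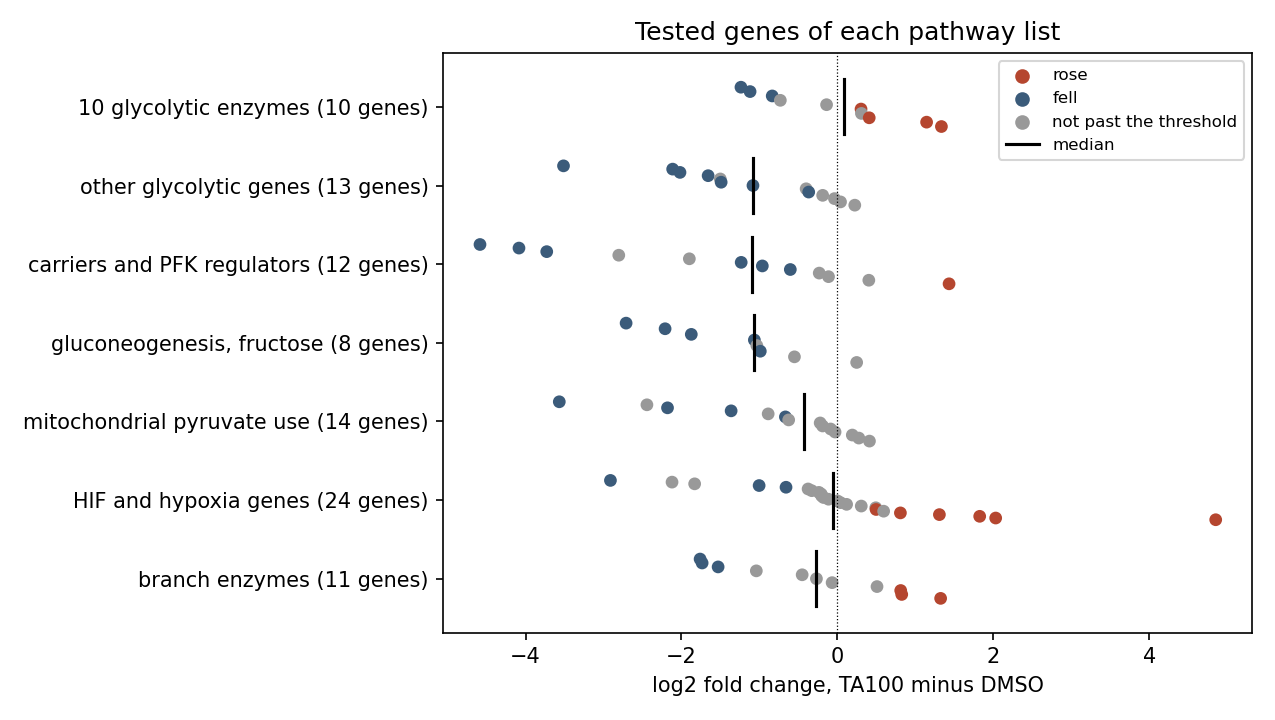
log2 fold change (x axis, tyramine minus DMSO) of each tested gene in 7 lists, red where it rose, blue where it fell and grey where it was not past the threshold, with the list median over its tested genes as a black line. G6pc, at 0 counts in the tyramine libraries, is not drawn; the 10 enzymes lie between -1.24 and 1.33.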

How the data were processed

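RNA sequencing counts of 6 libraries were used. Libraries were made with a stranded mRNA kit from 2 µg of RNA, carried molecular identifiers of 8 bases and were read as paired ends of 150 bases, per the labels' protocols. The submitters' processing notes name STAR 2.5.3a and mm10. Values in the deposited table are whole-number raw counts by gene symbol; the sources used here do not name the authors' counting program, annotation, strand setting or use of identifiers. Columns were matched to samples by title.

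Low genes were dropped by filterByExpr at a minimum count of 10 and a minimum total of 15; libraries were scaled by TMM (factors 0.962 to 1.04) and genes tested with edgeR 4.0.16's quasi-likelihood test (R 4.3.3, robust, group as the only term). P-values were adjusted over all 12139 tested genes and called under 0.05. CPM were computed on library size times its TMM factor; each SE is |log2 fold change|/√F. Shares, sums and levels per kilobase carry no test. Gene positions and transcript lengths are those of GENCODE M21 (GRCm38), by symbol; of the gene models named Aldoa, the one matching RefSeq's gene was used.

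The members and lists were chosen with earlier results of these data known. Every member and every other gene of the glycolytic steps is named, except some items that are not reported here, and from each other pathway list up to 4 called genes with the smallest p, with Hif1a and Slc2a1 always, and of marker lists the genes at 0; G6pc and Eno1b were named after their values were seen. The fit was tested on simulated data with known answers. Replicate pairs all differed beyond counting noise, with a chi-square per degree of freedom of 53.3 to 99.4 within tyramine and 26.8 to 35 within DMSO libraries. Alternatives were other scalings and filters, DESeq2 1.42.0, limma-voom (limma 3.58.1), a replicate block, each library left out, and levels per kilobase.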

Additional observations from a re-analysis of the deposited data

How the results depend on the processing

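Of 130 recomputed values of the 10 enzymes, 121 kept their direction and side of the threshold, 3 lost a call, 6 gained one and 0 changed sign. Pfkl gained a call with library totals alone (log2 fold change -0.82), with no filter on low counts (-0.73), a minimum count of 50 (-0.74), DESeq2 (-0.74) and limma-voom (-0.78), and ranged from -1.02 to -0.50 with each library left out. Pkm lost its call with library totals alone (0.22), a scaling that moved the median log2 fold change of all genes to -0.081 (0.004 by TMM), and ranged from 0.27 to 0.33 with each library left out. With each library left out, 3 to 4 of the 10 rose and 3 to 4 fell, while over the whole table the rising genes ranged from 934 to 1510 and the falling genes from 1035 to 1797, lowest when a DMSO library was left out; the falling carriers and phosphofructokinase regulators ranged from 3 to 7. Library totals alone called 1221 genes higher and 1803 lower (40.4% higher, against 48.5%).

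Same-numbered libraries did not deviate together (correlations -0.0424 to -0.00522 over 9071 genes), so the numbers are not taken as pairs. With the replicate block, 4 enzymes rose and 3 fell, with 1204 genes rising and 1390 falling in all, and Pgam1 was not called (adjusted p = 0.0828). The rise in the share of Hk2 was 8.49 percentage points by CPM and 6.85 per kilobase. The difference in the share of Pfkp, -0.873 points (tyramine minus DMSO), was 1.14 without tyramine replicate 2, and ranged from -2.19 to 1.14 with each library left out. Signs turned for genes that were never called: Adpgk with library totals (-0.044) and without DMSO replicate 1, DMSO replicate 2 or tyramine replicate 3 (range -0.199 to 0.222); Gapdh without DMSO replicate 1 or tyramine replicate 1 (range -0.107 to 0.032); Eno3 with limma-voom (-0.74), the block (-0.52), or without DMSO replicate 2 or tyramine replicate 3 (range -0.461 to 1.187); and Ldhb without DMSO replicate 2 (range -0.772 to 0.13). The causes were not tested. The missed thresholds of Gpi1 and Pgk1 do not show that they were unchanged.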
